A study of Mus musculus with 21 samples.

Results

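The genes described here are the cytosolic ribosomal protein genes, the rows of 2 mouse brain RNA count tables whose symbols name a protein of the small ribosomal subunit (Rps) or of the large subunit (Rpl and Rplp). They were chosen by symbol alone, as Rpl or Rps followed by a number and at most 1 of the letters a, x or l, together with Rplp0, Rplp1, Rplp2 and Rpsa. The rule found 80 of the 21872 rows, 49 for the large subunit and 31 for the small subunit. The study concerns copper in brain development, and RNA came from mouse brain after water or after trientine (TETA), a drug that binds copper, a condition the labels call copper-deficient. There were 6 water-treated control and 6 TETA libraries from embryonic day 18.5 (E18.5), and 5 control and 4 TETA libraries from 7 weeks after birth. The extraction protocol names the prefrontal cortex of male mice at 7 weeks, and region and sex at E18.5, the strain, the dose and the route of TETA are not given in the sources used here. The labels do not say whether libraries came from separate animals, so p-values measure the spread between these libraries, which may be technical.

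A ribosome joins a small subunit, which reads the mRNA, to a large subunit, which links amino acids and holds the tunnel through which the new protein leaves. Most of these proteins are needed in equal number in every ribosome, and their genes are scattered over the genome and transcribed strongly in nearly all cells. Their mRNAs are known for beginning with a cytosine and a run of pyrimidines, the terminal oligopyrimidine (TOP) tract, through which the kinase mTOR and the RNA-binding protein LARP1 govern their translation and stability. In the brain, neurons also carry ribosomes and ribosomal protein mRNAs into axons and dendrites.

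All 80 genes were found in the GENCODE M21 annotation of GRCm38, the build (mm10) in the submitters' processing notes. They lie on 19 chromosomes, 14 of them on chromosome 7 and 4 on X. RefSeq start sites (GRCm38.p6) were matched by symbol for 60 of the 80. The following stretches run from 10 bases before to 14 bases after the RefSeq start for the members that the results turn on, and capitals mark a TOP-like run, a C followed by at least 4 pyrimidines, beginning within 5 bases of the start. The first 6 hold such a run and the last 3 do not.
Rps2, chr17:24720053-24720076, plus strand: gtcgagatctcgcgCTTCTTggag
Rplp2, chr7:141447641-141447664, plus strand: cagcgtcttcCTTTCgccgccgga
Rps26, chr10:128626493-128626516, minus strand: gcaagccgccggatCCTCTTTCga
Rps21, chr2:180257369-180257392, plus strand: aggacccgccCTCCTgcccaatag
Rps9, chr7:3704031-3704054, plus strand: cttgtctCTCTTTgtctcgggcct
Rps6, chr4:86857354-86857377, minus strand: gaagtcgggcCTCTTTTTCgtgac
Rpsa, chr9:120127756-120127779, plus strand: ttatttaaggacgtcatttccggc
Rplp0, chr5:115559457-115559480, plus strand: cgggtttcgaggaccgcctggttc
Rps28, chr17:33824549-33824572, minus strand: cgcgtgcggtctcgcgagagcgaa
In Rplp2, Rps21 and Rps6 the run begins exactly at the start, as it did in 13 of the 60 members, or 21.7%. Over all 27025 genes with a RefSeq start, 3.01% had a run beginning there. Rps21 has a second annotated start without a run, and a gene counts here if any of its starts has one. Counted by start, the run began exactly at 18.1% of 72 member starts and 2.51% of all starts. Within 5 bases on either side, 28 of the 60 members had one, or 46.7%, against 21.2% of all genes. A member without the run, such as Rpsa, only lacks these letters in this window at the annotated start.

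A second shared sequence was CCGGAAG, the core that ETS-family transcription factors are known to bind, searched on both strands from 250 bases before to 50 bases after the start. It was present for 25 of the 60 members, or 41.7%, against 9.93% of all genes and 13.4% of the 16522 protein-coding genes. Stretches of 24 bases with the match nearest the start in capitals are shown for 4 members described below, and CTTCCGG is the same site read on the other strand.
Rps2, chr17:24719928-24719951, plus strand: tatacgtcCTTCCGGctggtgtag
Rpsa, chr9:120127570-120127593, plus strand: cccagctaCTTCCGGcctggggtc
Rps21, chr2:180257345-180257368, plus strand: accctgacCCGGAAGcacttaccg
Rplp2, chr7:141447535-141447558, plus strand: atgtcttcCTTCCGGtgcaccctt
The TATA box TATAAA was found for 6 of the 60 members, against 15.7% of all genes. The E-box CACGTG, read by MYC among others, was also found for 6 members, against 8.09% of all genes. These matches describe the letters near annotated starts, and starts were not measured here.

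Library totals ran from 14678265 to 24308555 counts, and 71 of the 80 members had over 1000 counts in every library. In the E18.5 table, 1940 rows at 0 in control 1-1 held multiples of 11 in all other libraries and were divided by 11. The only member among them was Rpl39l. Marker genes of cortex were detected in all groups, 11 of 11 in each, with summed CPM (counts divided by TMM-scaled library totals) of 2167 to 2399 in E18.5 controls and 2539 to 2712 in 7-week controls. Striatal projection neuron markers, 16 of 16 detected, summed to 1277 to 1568 CPM in the 7-week controls and 585 to 741 CPM in the 7-week TETA libraries, so the 7-week groups did not overlap in them. At E18.5 the same sums were 751 to 828 and 759 to 800.4 CPM.

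Together the 80 genes took 2.34% to 2.90% of the counts in E18.5 controls, with a mean of 2.61% ± 0.193 (SD, n = 6). In E18.5 TETA libraries they took 2.26% to 2.90%, with a mean of 2.62% ± 0.218 (SD, n = 6). At 7 weeks the shares in the 5 control libraries were 1.07, 1.13, 1.13, 1.09 and 1.12%, and in the 4 TETA libraries 1.177, 1.047, 1.095 and 1.037%. The 2 ages were apart in every library, while TETA and control libraries overlapped at both ages. In bulk tissue, fewer cells of a type and less RNA per cell cannot be told apart, here and in every level below.

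**Figure D1:**
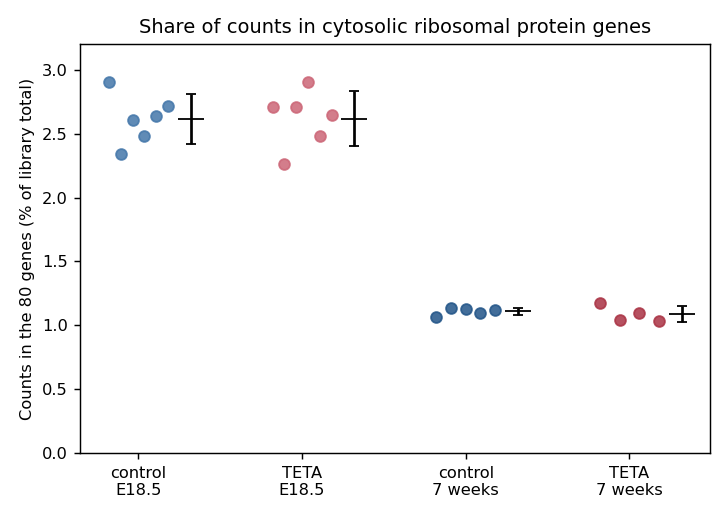
Share of all counts in a library that fell on the 80 cytosolic ribosomal protein genes (vertical axis, percent), 1 point per library, with the group mean and SD beside the points. All 12 E18.5 libraries lie above 2.2% and all 9 libraries from 7 weeks lie below 1.2%, with control and TETA overlapping at each age.

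Per kilobase of transcript, levels differed widely among members. Over the 75 tested members with an annotated transcript under 2500 bases, the mean level in E18.5 controls ran from 3.93 to 1029.7 CPM per kilobase, with a median of 377. The highest were Rps24, Rplp1, Rpl41 and Rps29, and the lowest were Rps10, Rpl13a, Rps27l and Rpl22. At 7 weeks the control range was 2.89 to 769, with a median of 182 CPM per kilobase, and Rplp1, Rps15, Rps29 and Rps24 led. The same 4 genes were lowest at both ages. Spearman's rho between the 2 ages was 0.795 over the 75 members, a description of genes that share libraries and are not independent.

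At E18.5, no ribosomal protein gene was called between TETA and control. None of the 77 tested members passed an adjusted p of 0.05 by edgeR's quasi-likelihood test, by DESeq2 or by limma voom, and none had an unadjusted p under 0.05, which 4.78% of all 13794 genes tested had. With the adjusted threshold, edgeR called 0% of all genes and DESeq2 10 genes. The median log2 change over the members was 0.013, beside -0.0027 over all genes tested, and 26 of the 77 lay below 0, against 51.8% of all genes. The sign of that median was not stable: it was -0.014 without control 1-2, -0.017 without TETA 2-2, -0.029 with the nuclear RNA score as a covariate and 0.057 without TETA 1-2. The range was -0.11 (Rps10) to 0.11 (Rps29), and 71 of the 77 changes were smaller than their own standard error (SE). The 95% intervals of the 77 changes lay between -0.34 and 0.31, with a median reach of 0.116 on either side. Differences below about that size were not detectable here, and after adjustment over all genes tested larger ones could also go uncalled. Members whose groups did not overlap numbered 0, against 0.312% of all genes.

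The members with the smallest p at E18.5 show the spread behind this. Rps29, a zinc-binding protein of the small subunit head, had 211, 294 and 340.1 CPM as the lowest, median and highest of 6 control libraries. The lowest, median and highest of its 6 TETA libraries were 226, 317 and 367 CPM. In both groups the lowest library was the one numbered 1-2, and the groups overlapped over nearly their whole range. Its log2 change was 0.11 (SE 0.10). Rps28, also in the small subunit head, averaged 159.8 ± 18.9 CPM (SD, n = 6) in the control libraries and 170.0 ± 19.1 CPM (SD, n = 6) in those given TETA, a log2 change of 0.088 (SE 0.075). For Rps2, a small subunit protein at the entry of the mRNA channel, the control libraries ran 562, 603 and 667 CPM (lowest, median, highest) and the TETA libraries 536, 586 and 621 CPM. These also overlapped, with a log2 change of -0.057 (SE 0.046). The large subunit proteins Rpl30, Rpl35 and Rpl29 had log2 changes of 0.054 (SE 0.054), -0.056 (SE 0.051) and -0.042 (SE 0.040). The adjusted p of each of these 6 members was 0.996 by edgeR's quasi-likelihood test.

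**Figure D2:**
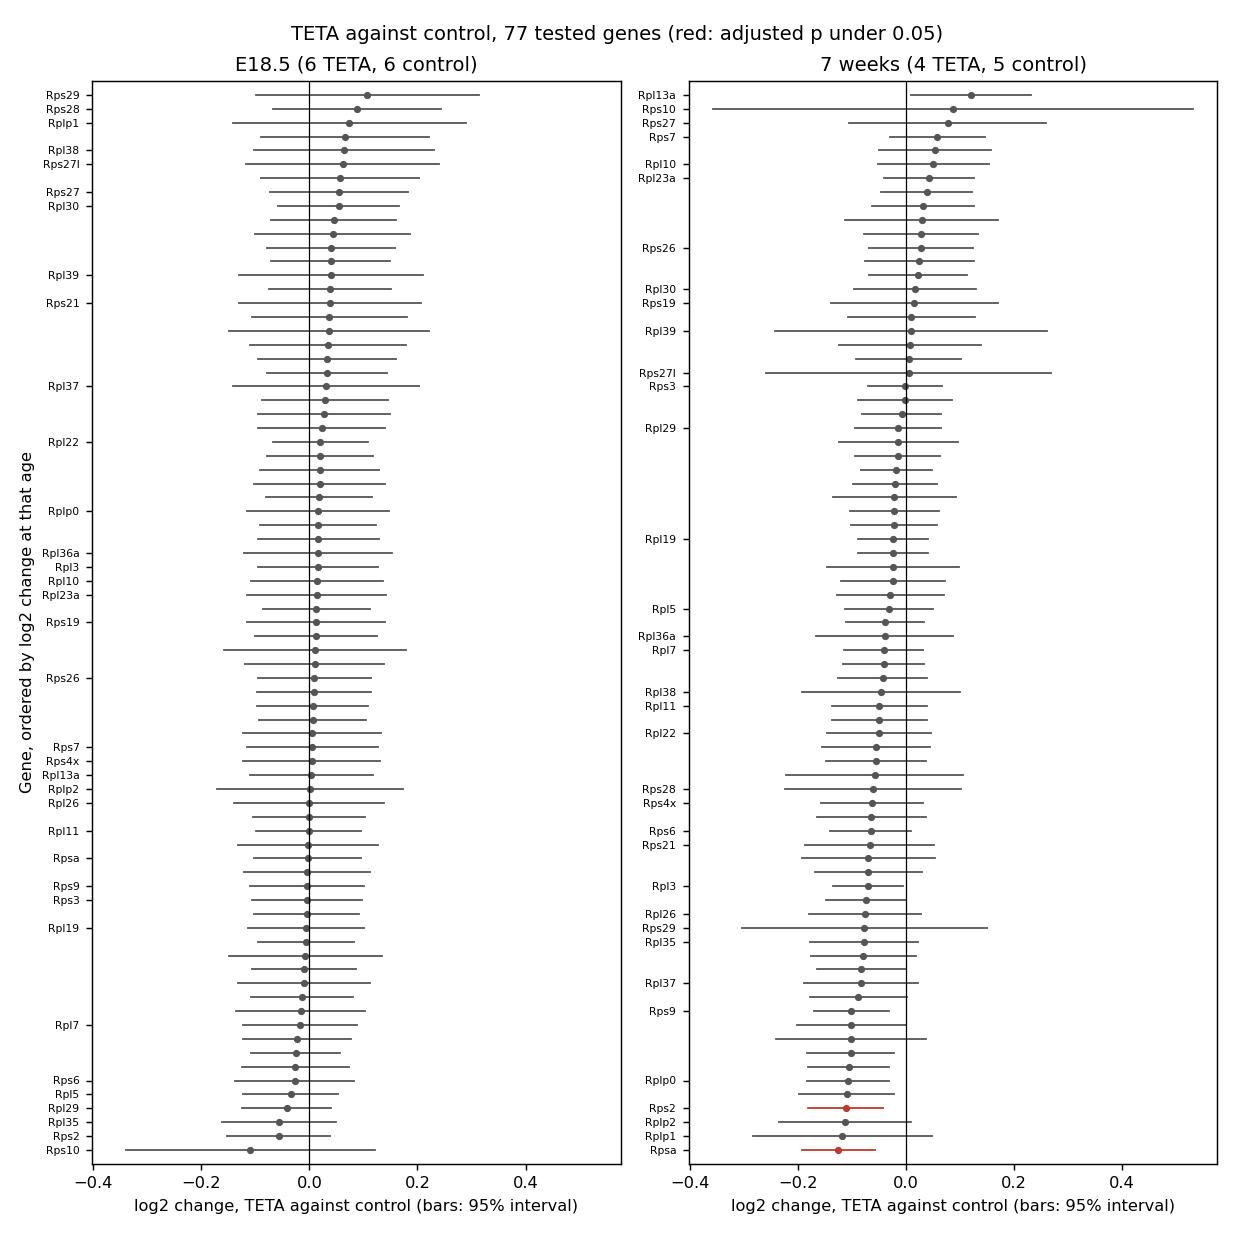
Log2 change of each of the 77 tested genes in TETA against control libraries (horizontal axis) at E18.5 (left) and 7 weeks (right), ordered by the change at that age, with 95% intervals as bars and genes at an adjusted p under 0.05 in red; labels name genes described in the text. At E18.5 every interval spans 0, and at 7 weeks Rpsa and Rps2 are in red, both to the left of 0.

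At 7 weeks, Rpsa and Rps2 fell in TETA against control, and the other 75 tested members did not pass the test. These 2 of 77 stand beside 9.96% of all 14240 genes called, 4.28% lower and 5.67% higher, and a count of 2 in 77 is below that share. Rpsa, a small subunit protein also known as the laminin receptor, had 363, 341, 338, 362 and 354 CPM in the 5 control libraries and 317, 334, 329 and 311 CPM in the 4 TETA libraries. Every TETA library was below every control library. The log2 change was -0.13 (SE 0.032), with an adjusted p of 0.0162 by edgeR's quasi-likelihood test. Rps2 had 269, 286, 281, 270.3 and 292 CPM in control and 267, 264, 253 and 250.4 CPM in TETA. Its groups did not overlap either, though the highest TETA library was close to the lowest control. The log2 change was -0.11 (SE 0.033), with an adjusted p of 0.0363 by edgeR's quasi-likelihood test. Both changes are falls of under 10%.

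Next in order were Rps9, known for its part in decoding fidelity, and Rplp0, the base of the stalk that draws elongation factors to the ribosome. Rps9 had 162, 163, 162, 167 and 161 CPM in control and 157, 157, 146 and 148 CPM in TETA. Rplp0 had 191, 192, 195, 194 and 213 CPM in control and 179, 183, 189.5 and 179 CPM in TETA. For neither did the groups overlap, and their log2 changes were -0.10 (SE 0.033) and -0.11 (SE 0.036). Their adjusted p-values were 0.0595 and 0.0656 by edgeR's quasi-likelihood test. Rps9 was called lower by DESeq2 (adjusted p = 0.0312) and limma voom (adjusted p = 0.0460), and Rplp0 by DESeq2 (adjusted p = 0.0436). No other setting run called Rps9 or Rplp0. Non-overlapping groups were seen for these 4 members, against 11.2% of all genes. Above 0, the smallest p belonged to Rpl13a, known for its release into a translation-silencing complex, at 24.3, 25.7, 26.1, 23.8 and 24.4 CPM in control and 28.7, 26.5, 27.6 and 25.2 CPM in TETA. Its groups overlapped, and the change of 0.12 (SE 0.053) had an adjusted p of 0.168 by edgeR's quasi-likelihood test. Rps7, which also binds the p53 regulator MDM2, and Rpl23a, the docking site for factors at the tunnel exit, had changes of 0.058 (SE 0.042) and 0.043 (SE 0.040), with overlapping groups.

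Most members lay slightly below 0 at 7 weeks, 56 of 77 against 49.9% of all genes. The median log2 change was -0.039, beside 0.00017 over all genes, and the range was -0.13 to 0.12. That median was -0.083 without TETA 1, -0.014 without TETA 2, -0.021 without TETA 4 and -0.023 without TMM factors, so its size depends on single libraries. By subunit, 35 of 46 large subunit members were below 0 with a median of -0.030, and 21 of 31 small subunit members with a median of -0.050. At an unadjusted p under 0.05 there were 11 lower and 1 higher, beside 11.1% and 12.9% of all genes. The members share libraries and move together, so their common side of 0 is not a count of independent observations.

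Neither 7-week call held when certain single libraries were left out. Rpsa was not called without TETA 1 (adjusted p = 0.0521) or without TETA 4 (adjusted p = 0.0569), by edgeR's quasi-likelihood test. Rps2 was not called without control 2, 3 or 5 or without TETA 3 or 4, with adjusted p-values from 0.0615 to 0.118. Nor was Rps2 called with library totals in place of TMM (adjusted p = 0.0722, edgeR's quasi-likelihood test). Without TETA 1, 10 members were called, all lower: the stalk proteins Rplp1 and Rplp2, with Rpl12, Rpl28, Rpl31, Rpl32, Rps2, Rps13, Rps28 and Rps29. Without TETA 4 none was called. The nuclear-retained and detained-intron RNAs listed as a sign of RNA fraction moved with TETA at 7 weeks, 16 of 21 higher and none lower, with summed levels of 4236 to 4719 CPM in control and 5210 to 5667 CPM in TETA. The striatal marker sums above moved as well. Astrocyte markers summed to 5019.9 to 5688 CPM in control and 4546 to 4941 CPM in TETA, with 2 of 7 genes called lower, and meningeal markers to 56.2 to 66.6 and 36.1 to 52.3 CPM, with 3 of 7 called lower. Neither sum overlapped between the groups. Sums that did overlap were those of progenitor markers, with 2 of 9 genes lower, and of cortex markers, with 1 higher and 2 lower of 11. So did those of choroid plexus markers, with 1 lower of 5, and of endothelial markers, with 1 higher of 8. The choroid plexus sum was 65.0 CPM in control 4, 4.75 to 5.21 CPM in the other controls and 3.40 to 6.71 CPM in TETA. Sums of oligodendrocyte, microglial, blood, and midbrain and hindbrain markers overlapped too, with no gene called. Of 8 oligodendrocyte markers, 7 lay below 0, with a median log2 change of -0.12. With a score of the nuclear RNA or the striatal list as a covariate, none of the members was called, nor more than 35 genes of all kinds with the nuclear RNA score and 0 with the striatal score, and these scores separate the groups as TETA does. The part of any of these lists in the change of Rpsa and Rps2 was not tested.

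Tests of the difference between ages called none of the 77 members by edgeR or DESeq2, while edgeR called 1.67% of all 14660 genes higher and 1.43% lower. The difference lay below 0 for 65 of the 77 members, with a median of -0.053, against 52.4% of all genes. The 7-week effect minus the E18.5 effect was -0.13 (SE 0.062) for Rpsa, with an unadjusted p of 0.0392 and an adjusted p of 0.279 by edgeR's quasi-likelihood test. It was the only member with an unadjusted p under 0.05, and 8.38% of all genes were lower at that threshold. For Rps2 it was -0.067 (SE 0.061), with an adjusted p of 0.655. The fall of these 2 genes at 7 weeks is therefore not shown to differ from their change at E18.5.

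Other genes of protein synthesis at 7 weeks were read from lists chosen by function. Of 24 translation factors and other transcripts known for a TOP tract, 3 fell and none rose, with a median log2 change of -0.044. These were Tpt1 at -0.18 (SE 0.028), the elongation factor Eef2 at -0.13 (SE 0.030) and the elongation factor Eef1a1 at -0.11 (SE 0.027). Of 53 ribosome assembly and RNA polymerase I genes, 3 fell, among them nucleolin (Ncl) at -0.12 (SE 0.029), and 2 rose. Of 21 regulators, the kinase gene Mtor fell, at -0.13 (SE 0.035), and 3 rose, among them the TOP-binding protein gene Tia1 at 0.35 (SE 0.056). Mitochondrial ribosomal protein genes gave 1 lower of 77, with a median of 0.0024, and respiratory chain subunits 4 lower of 65, with a median of -0.066. These counts stand beside the 4.28% of all genes called lower and the 5.67% called higher. At E18.5 none of these lists had a member called, with medians from -0.041 to 0.0053.

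Library by library, the members moved together within groups. With group means removed, the median pairwise correlation of log2 CPM between members was 0.839 over the 12 E18.5 libraries and 0.543 over the 9 libraries from 7 weeks. For respiratory chain subunits these values were 0.717 and 0.622, and for mitochondrial ribosomal proteins 0.307 and 0.109. All pairs share the same libraries and depth, so these are descriptions. At E18.5 the 2 libraries numbered 1-2 were lowest, with a median member deviation from the mean of that age of -0.17 in control and -0.21 in TETA on the log2 scale. In each of them 3 of 77 members were above the mean, as were 2 in control 2-2, where the deviation was smaller at -0.061, and 72 members were below their own group's mean in both libraries numbered 1-2. The same 2 libraries held the most nuclear-retained RNA, 6029.5 and 5969 CPM against 5218 to 5569 in the other 10, and its part was not tested. The highest were TETA 2-2 at 0.15, with 77 of 77 members above the mean, and control 1-1 at 0.14. Without control 1-1 and both 1-2 libraries, a choice made after these values were seen, none of the 77 members was called at E18.5 and the median change was 0.046.

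At 7 weeks, TETA 1 stood highest at 0.094 and TETA 2 and TETA 4 lowest at -0.091 and -0.079, while the 5 control libraries lay between -0.034 and 0.056. The TETA libraries thus spread on both sides of the controls. Rps29 shows it, with 228, 127, 145 and 157 CPM in TETA 1 to 4 around 153, 191, 181, 163 and 179.7 CPM in the controls, a log2 change of -0.077 (SE 0.11) that did not pass (adjusted p = 0.723, edgeR's quasi-likelihood test). Short transcripts deviated further than long ones in several libraries of both groups. In TETA 1 the median deviation was 0.18 over the 24 members with transcripts under 600 bases and 0.042 over the 30 members of 900 bases or more. In TETA 2 the same medians were -0.15 and -0.037, and in the E18.5 TETA library 1-2 they were -0.27 and -0.14. In controls 1, 2 and 3 the short and long medians were -0.073 and -0.011, 0.080 and 0.042, and 0.083 and 0.027. TETA 4 was low by a like amount in both length classes, -0.088 and -0.090.

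**Figure D3:**
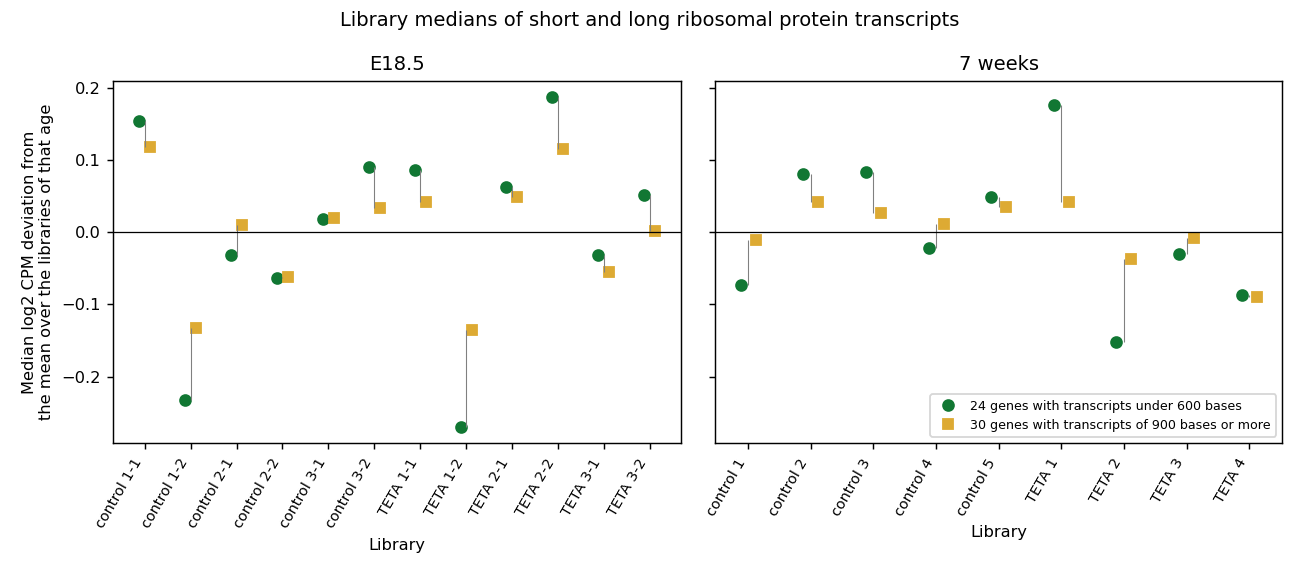
Median log2 CPM deviation of short (circles) and long (squares) ribosomal protein transcripts in each library (vertical axis) from the mean over the libraries of that age, for E18.5 (left) and 7 weeks (right). Short transcripts reach further from 0 than long ones in libraries of both groups and ages, among them both numbered 1-2, control 3-2 and TETA 1-1 and 2-2 at E18.5, and controls 1, 2 and 3 and TETA 1 and 2 at 7 weeks.

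Between ages, nearly all members were lower at 7 weeks. In control libraries, 75 of 77 tested members fell from E18.5 to 7 weeks and none rose. Here 89.5% of all 14375 genes were called, 45.5% lower and 44.0% higher, so a call is common between these ages and the members stand apart by its direction. The median change was -1.105 on the log2 scale, 2.15-fold lower, beside -0.022 over all genes. There were 43 members lower by more than 2-fold and 2 by more than 4-fold. Groups did not overlap for 73 of 77 members, against 80.2% of all genes. The median was -0.95 over 46 large subunit members and -1.16 over 31 small subunit members. Age, count table and cell makeup change together here and cannot be told apart, and region and sex, not given at E18.5, may differ as well. Summed markers of dividing progenitors were 472 to 499 CPM at E18.5 and 70.7 to 83.5 CPM at 7 weeks. Those of oligodendrocytes were 61.7 to 72.4 CPM and 6935 to 8205 CPM, with both tables scaled together for these sums. All 7 astrocyte and all 8 microglial markers were called higher at 7 weeks. The nuclear-retained RNAs moved the same way as the members, 18 of 21 lower and 1 higher, with sums of 5218 to 6029.5 CPM at E18.5 and 4236 to 4719 CPM at 7 weeks, and their part was not tested.

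Among the largest falls were those of Rplp0, Rps26, Rpl39, Rps19 and Rpl7. Rplp0 had 787, 931 and 1038 CPM (lowest, median and highest of 6, both tables scaled together) at E18.5 and 202, 203, 205, 205 and 224 CPM at 7 weeks, a change of -2.16 (SE 0.056). Rps26, at the mRNA exit channel, had 292, 329.7 and 357 CPM at E18.5 and 77.3, 80.4, 78.6, 71.6 and 81.4 CPM at 7 weeks, a change of -2.06 (SE 0.048). For both, the lowest E18.5 library was more than 3 times the highest library from 7 weeks. Rpl39, in the wall of the exit tunnel, changed by -1.86 (SE 0.064). Rps19, the first gene known to be mutated in Diamond-Blackfan anaemia, changed by -1.69 (SE 0.054), and Rpl7 by -1.68 (SE 0.045). The largest adjusted p among these 5 was 1.76e-18 by edgeR's quasi-likelihood test. Rpsa and Rps2, the members called with TETA at 7 weeks, changed with age by -1.30 (SE 0.042) and -0.97 (SE 0.042).

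Members with other known roles fell with age by amounts between these extremes, and are named here for their roles with all values known. Rps6, the target of the S6 kinases below mTOR, had 168, 201 and 214 CPM at E18.5 and 104, 107, 104, 104 and 107 CPM at 7 weeks. Its groups were apart, and its change was -0.90 (SE 0.049). Rpl5 and Rpl11, which bind MDM2 when ribosome assembly fails, changed by -1.38 (SE 0.038) and -1.37 (SE 0.038). Rpl35, Rpl23a, Rpl26 and Rpl19, which surround the tunnel exit, changed by -1.30 (SE 0.041), -1.35 (SE 0.053), -0.83 (SE 0.059) and -0.82 (SE 0.047). Rps3, at the mRNA entry with Rps2, changed by -1.06 (SE 0.040), and Rpl38, known for its part in selective translation in the embryo, by -0.60 (SE 0.062). The X-linked members Rps4x and Rpl36a changed by -1.58 (SE 0.048) and -1.29 (SE 0.048). With TETA, none of these 11 members was called at either age, and their log2 changes at 7 weeks lay between -0.077 and 0.043.

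The TETA libraries, which share no library with the controls, gave a like picture. From E18.5 to 7 weeks, 74 of 77 members fell and none rose, with a median of -1.14, beside 44.8% of all genes called lower and 43.7% higher. There were 73 members called lower in both. Spearman's rho between the control and TETA age changes was 0.988 over the 77 members, a description across genes.

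**Figure D4:**
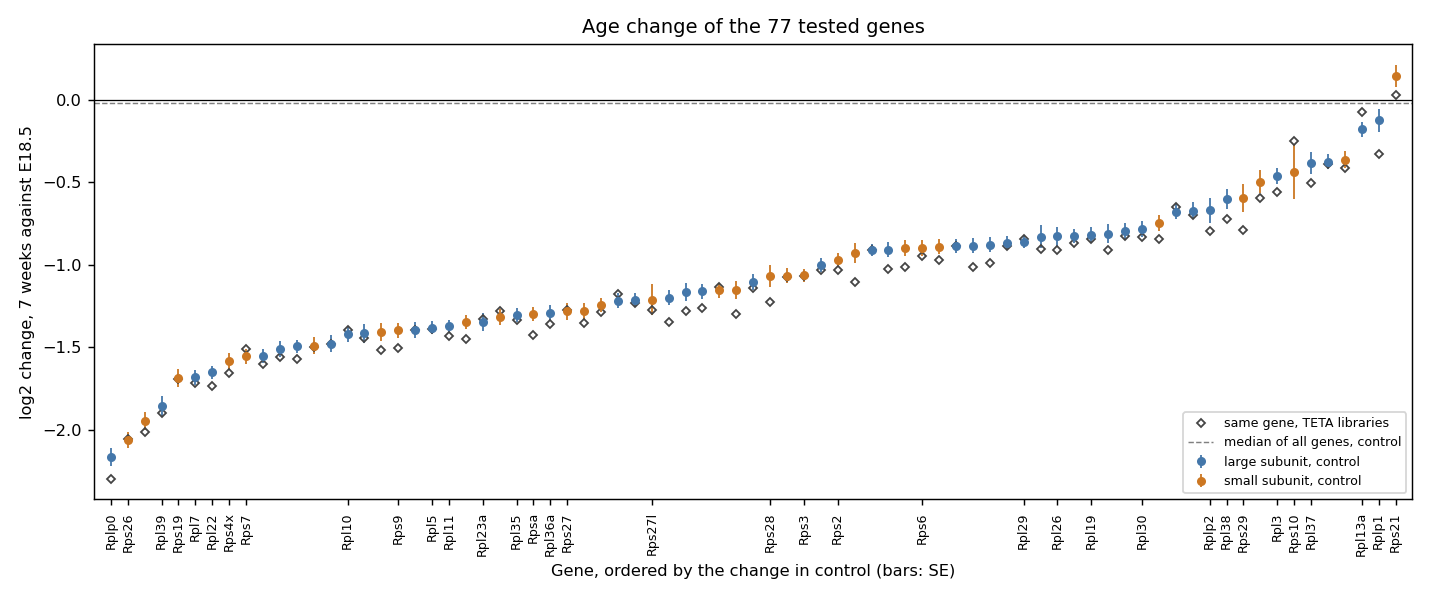
Log2 change from E18.5 to 7 weeks (vertical axis) of the 77 tested genes, ordered by the change in control libraries, with large subunit genes in blue and small subunit genes in orange, SE as bars and the TETA libraries as open diamonds; labels name genes described in the text. The values run from -2.16 for Rplp0 to 0.14 for Rps21, and the dashed line marks the median of all genes at -0.022.

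The 3 stalk transcripts changed unequally with age. Rplp1 and Rplp2 form the pairs that hang from Rplp0, and all 3 proteins belong to 1 structure. Rplp1 had 327, 415 and 487 CPM (lowest, median and highest of 6) in E18.5 controls and 355, 406, 388, 374 and 394 CPM in 7-week controls. The groups overlapped, and its change of -0.13 (SE 0.069) did not pass, at an adjusted p of 0.0890 by edgeR's quasi-likelihood test. Rplp2 had 183, 258 and 291 CPM at E18.5 and 148, 159, 159, 156 and 166 CPM at 7 weeks, a change of -0.67 (SE 0.076), and its groups did not overlap. The ratio of Rplp1 to Rplp0 counts, which no scaling between libraries can alter, was 0.416 to 0.481 in E18.5 controls and 1.76 to 2.00 in 7-week controls. In TETA libraries it was 0.372 to 0.512 and 1.47 to 2.37. The ratio of Rplp1 to Rplp2 was 1.60 to 1.79 and 2.37 to 2.55 in the 2 control groups. Neither ratio overlapped between the control groups. These ratios compare counts and are not corrected for length.

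**Figure D5:**
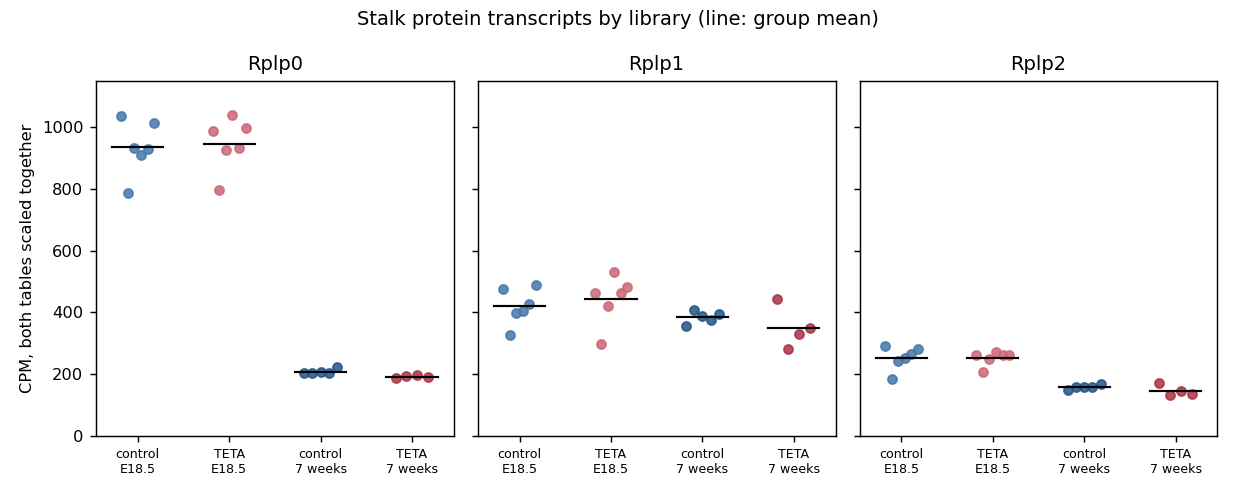
CPM of Rplp0, Rplp1 and Rplp2 in each library (vertical axis, both tables scaled together), by group, with the group mean as a line. Rplp0 falls from above 780 CPM in every E18.5 library to below 230 CPM in every library from 7 weeks, while the Rplp1 groups overlap.

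Rplp1 and Rps21 were the 2 members not called with age in control. They are named because they were the exceptions, after their values were seen. Rps21, a small subunit protein needed late in subunit maturation, had 110.2, 119.7 and 151 CPM at E18.5 and 122, 154, 144, 134 and 141 CPM at 7 weeks, with overlapping groups. Its change was 0.14 (SE 0.068), at an adjusted p of 0.050005 by edgeR's quasi-likelihood test, and -0.0087 without the TMM factors, so its sign depends on the scaling. It was called higher in 8 of 18 alternative settings. Rplp1 was called lower in 5 of 18, among them without E18.5 control 1-2, at -0.18 (adjusted p = 0.00123). Leaving out TMM shifted the median of all genes to -0.18 and that of the members to -1.26. Rpl37 and Rps10 were called lower, at -0.38 (SE 0.067) and -0.44 (SE 0.17), although their groups overlapped, and were also named after their values were seen.

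Paralogs known from other tissues were at or near 0. Rpl10l, known from testis, had no read in any of the 21 libraries, which allows an expected total of up to about 3 counts over all 21. Rpl39l, also known from testis, had 7 reads in all over the 6 E18.5 controls, after division by 11, and none at 7 weeks. Rpl3l, known from muscle, had at most 3 counts in an E18.5 library and 2 to 20 in a 7-week library, and these 3 genes were below the filter in the TETA and age comparisons. Their partners Rpl10, Rpl39 and Rpl3 were abundant, and Rpl10 and Rpl3 changed with age by -1.42 (SE 0.050) and -0.46 (SE 0.047). Rps27l, a p53 target, had 32.5 ± 3.37 CPM per kilobase at E18.5 and 13.9 ± 2.24 at 7 weeks in control (SD, n = 6 and 5), against 446 ± 28.5 and 182 ± 11.8 CPM per kilobase for Rps27. The age changes of the pair were -1.21 (SE 0.094) and -1.28 (SE 0.049), so both fell. Rpl22 changed by -1.65 (SE 0.040) and its paralog Rpl22l1, which the name rule leaves out, by -0.35 (SE 0.087).

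Ribosomal proteins outside the name rule gave 5 lower and 1 higher of 7 tested with age. Rack1, a scaffold on the small subunit head, changed by -1.90 (SE 0.054), Rps3a1 by -1.09 (SE 0.041) and Fau by -0.73 (SE 0.045). Of the 24 other TOP transcripts, 22 fell and 2 rose, with a median of -1.04. The elongation factor gene Eef1a1 fell, at -1.50 (SE 0.043), while Eef1a2, its form in mature neurons, rose, at 2.66 (SE 0.045). Of 53 ribosome assembly genes, 42 fell and 4 rose, with a median of -0.55. Among 21 regulators, 15 fell and 5 rose, and Myc and Mycn, which drive ribosome production, fell, at -3.61 (SE 0.080) and -3.45 (SE 0.090). Mitochondrial ribosomal protein genes were split, 34 higher and 31 lower of 77 with a median of 0.00038. Respiratory chain subunits went the other way, 51 higher and 1 lower of 65 with a median of 0.51. These counts stand beside 45.5% of all genes lower and 44.0% higher.

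Ribosomal protein transcripts have many processed pseudogenes, which bears on how their reads are counted. Of the 77 tested members, 76 shared at least 1 stretch of 50 bases with a transcript of another gene, and the median member shared 50.7% of such stretches. Rps2 shared 79.0% with 71 genes, all pseudogenes, and Rpsa 43.9% with 27, all pseudogenes. How reads with several matches were counted is not given in the sources used here, so levels of such members are uncertain. Rps10 (chr17:27630418-27636669) is overlapped on its own strand over 53.6% of its exons by a readthrough gene, and its level was only 3.63 ± 0.300 CPM in E18.5 controls (SD, n = 6). Rpl13a (chr7:45125558-45128761) is overlapped over 59.3%, at 31.1 ± 0.694 CPM, and the overlapping gene Gm45713 was at 0 in all 21 libraries. Rpl24 and Rpl19 are overlapped over 71.5% and 15.7%. The genes of the main results lie at chr9:120127689-120132369 (Rpsa, 7 exons), chr17:24718116-24721929 (Rps2, 6 exons), chr5:115559467-115563727 (Rplp0, 7 exons), chr9:61913284-61914542 (Rplp1, 3 exons) and chr2:180257377-180258445 (Rps21, 6 exons) in GRCm38, and no annotated exon of another gene overlaps them on their strand.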

How the data were processed

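RNA was measured in 21 mouse brain libraries made with a stranded poly(A) kit, per the labels' protocols. The authors deposited 2 tables, 1 per age, of raw read counts, 21872 symbols by library, per the file headers. The submitters' processing notes name STAR 2.7.1a, featureCounts 2.0.1 and mm10; the annotation, the strand setting and the handling of multi-mapping reads are not given in the sources used here. Every column matched 1 sample and groups came from the sample titles. No replicate pair agreed within counting noise (lowest chi-square per gene 2.30). In the E18.5 table, rows at 0 in control 1-1 were divided by 11.

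Each age was fitted alone, and the 2 tables were joined by symbol for age and for the difference between ages. Low genes were removed (filterByExpr, min.count 10), TMM factors were applied, and edgeR 4.0.16 (limma 3.58.1, R 4.3.3) gave quasi-likelihood tests with Benjamini-Hochberg adjustment over all genes tested at 0.05. The SE is the log2 change divided by the square root of F. Levels are CPM with TMM scaling; deviations use log2(CPM + 0.5). Scripts were tested on simulated data. Alternatives were DESeq2 1.42.0, limma voom with library weights, library totals, other filters, each library left out, summed libraries, undivided counts, a replicate block, and nuclear RNA or striatal scores as covariates.

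Members named were, for TETA, those past the threshold or, if under 3, also the 3 higher and 3 lower with the smallest p; for age, the 6 largest rises and falls past it; and always the stalk proteins, Rpsa and paralogs with their partners. The members, lists and tests were chosen with earlier results of these data known. Per-length levels use the shortest GENCODE M21 coding transcript with a CCDS and RefSeq match; Rps15a and Rps20, with transcripts over 2500 bases, were left out of them. A few results under these rules are not reported here.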

Additional observations from a re-analysis of the deposited data

Results flagged for a closer look

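Of 108 sets of libraries examined, a named gene, the summed share or the Rplp1 to Rplp0 ratio in 1 group each, 6 had 1 library apart from the rest by Dixon's criterion, and chance gives about 1 in 20, here 5.4. Values are log2(CPM + 0.5) within an age. At 7 weeks, Rplp0 in control 5 stood at 7.73, with the nearest other control at 7.61. This control is the one without which the TETA change of Rplp0 was -0.078 instead of -0.11. Library TETA 1 stood apart in Rpl29, at 7.14 with the nearest at 7.04, and in Rps27, at 6.36 with the nearest at 5.87. At E18.5, TETA 1-2 stood below the other TETA libraries in Rplp2, at 7.75 with the nearest at 8.02, in Rps28, at 7.07 with the nearest at 7.41, and in Rps29, at 7.82 with the nearest at 8.29. These 5 values belong to the 2 libraries whose short ribosomal protein transcripts deviate most at their age. No member was called in the test of the difference between ages.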

How the results depend on the processing

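At E18.5, none of the 77 members was called under any setting run. At 7 weeks the main count of 2 became 5 with DESeq2, 3 with limma voom, 1 with library totals, 0 with the nuclear RNA score, 0 with the striatum score and 0 with the replicate block. Leaving out each library in turn gave 0 to 10 members; the causes were not tested. Between the control groups of the 2 ages, 74 to 78 members were called under every setting run, at most 1 of them higher (Rps21, or Rpl3l with no filter), and their median of -1.105 was -1.26 without TMM factors, while all other settings stayed within the spread of library medians. The replicate numbers were not taken to pair the libraries: same-numbered control and TETA libraries had correlations of -0.30 to 0.31 in the E18.5 table and -0.092 to -0.032 in the other over all genes. Over the members alone these were 0.0840 to 0.495 and -0.642 to -0.163, positive for all 6 numbers at E18.5 and negative for all 4 at 7 weeks. With the replicate block, 1072 genes of all kinds were called at 7 weeks against 1418 without it. Of the values for named members under alternatives, 810 kept their direction and side of the threshold, 14 lost a call, 18 gained one and 51, none of them called, changed sign. In depth, 71 of the 80 members had over 1000 counts in every library.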

Other observations

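Members can also be set side by side by what their start sites and transcripts hold, as descriptions with no test. Among the 57 tested members with a RefSeq start, the 13 with a TOP-like run exactly at the start had a median age change in control of -0.90, and the 44 others -1.16. The ranges were -1.49 to 0.14 and -2.16 to -0.18. With CCGGAAG in the promoter window the median age change was -0.98 over 24 members, and without it -1.16 over 33. At 7 weeks the TETA medians were -0.057 and -0.025 for the same classes. Across the 77 members, Spearman's rho of the age change was -0.218 with transcript length and 0.0557 with the share of 50-base stretches found in other genes. The TETA change had a rho with length of -0.380 at E18.5 and -0.00116 at 7 weeks. The members share libraries, and length moved with single libraries as described above.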
